A study of Nematostella vectensis with 47 samples.

Results

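ATAC-seq peaks lying in highly methylated DNA were followed in embryos of the sea anemone Nematostella vectensis. Each interval of the merged peak list was given a methylation level (mCG), the summed 5-methylcytosine calls over the summed valid calls of its CpGs in the Nanopore library of untreated gastrulae (UntreatedxUntreated). Peaks at 80% mCG or more, with at least 3 CpGs of at least 10 valid calls, made up the set. The members were thus chosen by methylation, with no use of accessibility beyond the peak call. The set held 2098 of the 35420 peaks with a level and of 36284 peaks in all, beside 2316 peaks of intermediate methylation (20 to 80%) and 31006 unmethylated peaks (under 20%).

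F0 GSK gastrulae developed from fertilization to 25 hours in 5 μM GSK-3484862, an inhibitor of the maintenance methyltransferase DNMT1, and F0 DMSO gastrulae in 0.1% DMSO (3 and 2 ATAC-seq libraries). F1 GSK gastrulae came from 2 lines, each bred from a pair of F0 animals treated with GSK as embryos and selected for low methylation. F1 MO gastrulae came from 2 lines bred from F0 animals injected with morpholinos against DNMT1 and UHRF1 (2 libraries each). All were whole embryos of the Massachusetts strain, and about 100 embryos were pooled per library. The F1 libraries were set against F0 DMSO, so generation and parental treatment cannot be told apart in those comparisons.

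In Nematostella, as in many invertebrates, DNA methylation sits mainly in the bodies of broadly transcribed genes, while promoters and distal regulatory elements are unmethylated. DNMT1 copies CpG methylation onto the new strand after replication, and UHRF1 brings DNMT1 to hemimethylated sites. ATAC-seq reads where the transposase Tn5 can insert, so its counts measure how open chromatin is.

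The members were nearly all inside genes and far from gene ends. The centres of 1934 members (92.2%) lay in a protein-coding gene, against 81.8% of peaks of intermediate methylation and 69.9% of unmethylated peaks. Inside a gene and over 500 bp from its ends lay 1872 (89.2%), against 64.0% of intermediate and 47.0% of unmethylated peaks. Members were short, with a median of 382.5 bp against 621 bp for intermediate and 749 bp for unmethylated peaks. They were poor in CpGs, with a median of 2.41 per 100 bp against 3.12 and 3.83. They were spread over all 15 chromosomes, from 82 on chromosome 14 to 197 on chromosome 2, and over 1503 genes, of which 1167 held a single member. LOC5510971 held the most, with 7.

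The level of a member rested on a median of 10 CpGs and 353 calls, and 545 members (26.0%) had 5 CpGs or fewer. The median level was 93.9%, and 5-hydroxymethylcytosine made up 1.05% of the calls in members. At the threshold, the 3 members nearest to it had 80%, 80% and 80.1% mCG, with F0 GSK over F0 DMSO log2 fold changes of 0.61, 0.47 and 1.17. The 3 peaks just outside had 79.9%, 79.8% and 79.8% mCG, with log2 fold changes of 0.05, -0.05 and 0.67.

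The merged list was itself a record of where peaks were called, and this bears on every count below. Every merged peak overlapped a peak called in at least 1 of the 5 F0 libraries. Members overlapped a peak in 954, 887 and 1201 cases in the 3 F0 GSK libraries, against 163 and 192 in the 2 F0 DMSO libraries. In total, 1815 members had no peak in either DMSO library, 211 had 1 in a single DMSO library and 72 had 1 in both, and 102 had none in any GSK library. The 1815 members were thus listed through GSK libraries alone, which partly fixes their direction in F0.

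Members, most of them listed through GSK libraries alone, were called higher in F0 GSK more often than peaks at large. The 2 sets were not listed alike, as 1815 of 2098 members had no DMSO peak, against 8887 of all 36284 peaks. With edgeR's quasi-likelihood test across all peaks (false discovery rate under 0.01), 358 members (17.1%) rose in F0 GSK against F0 DMSO and none fell, whereas 1.44% of all peaks rose and 0.229% fell. At an unadjusted p under 0.05, 899 members were higher and 8 lower, where 7.59% and 4% of all peaks were, and DESeq2 called 447 higher and 0 lower. All 3 GSK libraries lay above both DMSO libraries at 1107 members (52.8%), against 14.6% of all peaks, and below both at 26 (1.24%), against 13.1%. The median log2 fold change of members was 0.63, against 0.18 for peaks of intermediate methylation, -0.03 for unmethylated peaks and -0.00 for all peaks. Leaving out DMSO library 1 or 2 left 183 or 174 members called, and a single spread estimated over all 9 libraries left 0 called, with 271 higher at an unadjusted p under 0.05.

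The comparison was repeated among peaks with no peak call in DMSO, which could still differ in how many GSK libraries had a peak. There, 349 of 1815 members (19.2%) were called higher, with a median log2 fold change of 0.73. Of peaks of intermediate methylation 33 of 817 (4.04%) were called higher, with a median of 0.43. Of unmethylated peaks it was 34 of 5746 (0.592%), with a median of 0.24. A peak in 3 GSK libraries was found at 241 of these members, 67 intermediate and 238 unmethylated peaks, of which 68.1%, 29.9% and 6.72% were called higher. With a peak in 1 GSK library, it was 6.11% of members, 0.510% of intermediate and 0.219% of unmethylated peaks. The 211 members with a peak in 1 DMSO library had 8 calls and a median of 0.14, and the 72 with peaks in both had 1 call and a median of 0.10. The 102 members without a GSK peak had 0 calls and a median of -0.13. Of the 358 risen members, 349 had no DMSO peak, and the 358 ranged from 0.74 to 3.14 on the log2 scale, with a median of 1.60.

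**Figure D1:**
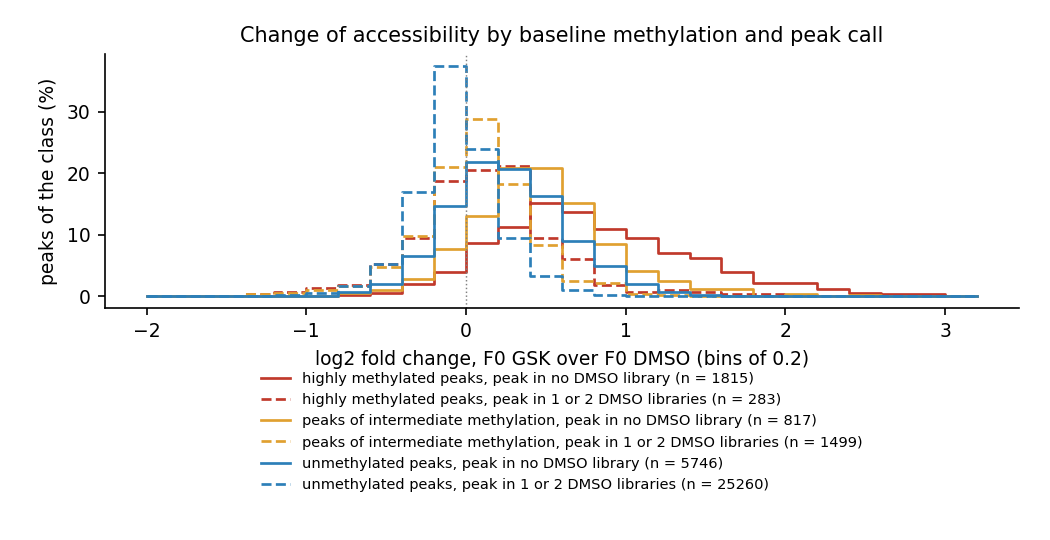
Share of peaks (%) in each bin of log2 fold change, F0 GSK over F0 DMSO, for 3 methylation classes; solid lines are peaks with no call in DMSO libraries and dashed lines peaks with a call in 1 or 2 of them. The solid line of the 1815 highly methylated peaks lies farthest to the right, with a median of 0.73, and its dashed counterpart sits near 0.

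Summed over members, the shift was seen in every treated library and in every F1 library. Members took 2.39%, 2.03% and 2.06% of the peak counts in F0 GSK, 2.19% and 2.07% in F1 GSK, 2.31% and 2.13% in F1 MO, against 1.28% and 1.23% in F0 DMSO. In these shares, every library of the other groups lay above both DMSO libraries. A sum need not hold member by member. The median of all members was 7.73 and 6.76 CPM (counts scaled to library size) in F1 MO, against 4.38 and 4.24 CPM in F0 DMSO. It was otherwise at the 1211 members with a peak in 1 GSK library and none in DMSO. Their median was 0.85 and 0.65 CPM in F1 MO, against 3.5 and 3.4 CPM in F0 DMSO. Their summed share in F1 MO was still 1.63 and 1.38 times the DMSO mean. Such low medians in F1 MO were not particular to members, as the other classes listed the same way had them too. The 4559 unmethylated peaks had 0.85 and 0.65 CPM in F1 MO, against 4.5 and 4.4 CPM in F0 DMSO. The 588 peaks of intermediate methylation had 0.81 and 0.56 CPM in F1 MO, against 4.2 and 4.1 CPM in F0 DMSO. Limited to members without a DMSO peak, the share relative to the DMSO mean was 2.17, 1.80 and 1.86 in F0 GSK, 1.93 and 1.80 in F1 GSK, and 2.04 and 1.91 in F1 MO. Unmethylated peaks chosen the same way had 1.32, 1.17 and 1.14 in F0 GSK, 1.29 and 1.21 in F1 GSK, and 1.14 and 1.03 in F1 MO. Peaks of intermediate methylation chosen the same way lay between, with 1.59, 1.35 and 1.35 in F0 GSK, 1.55 and 1.40 in F1 GSK, and 1.33 and 1.18 in F1 MO. These comparisons share the DMSO libraries. Pooled embryos do not show whether more cells were open at a site or each cell was open more often, and these cannot be told apart.

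**Figure D2:**
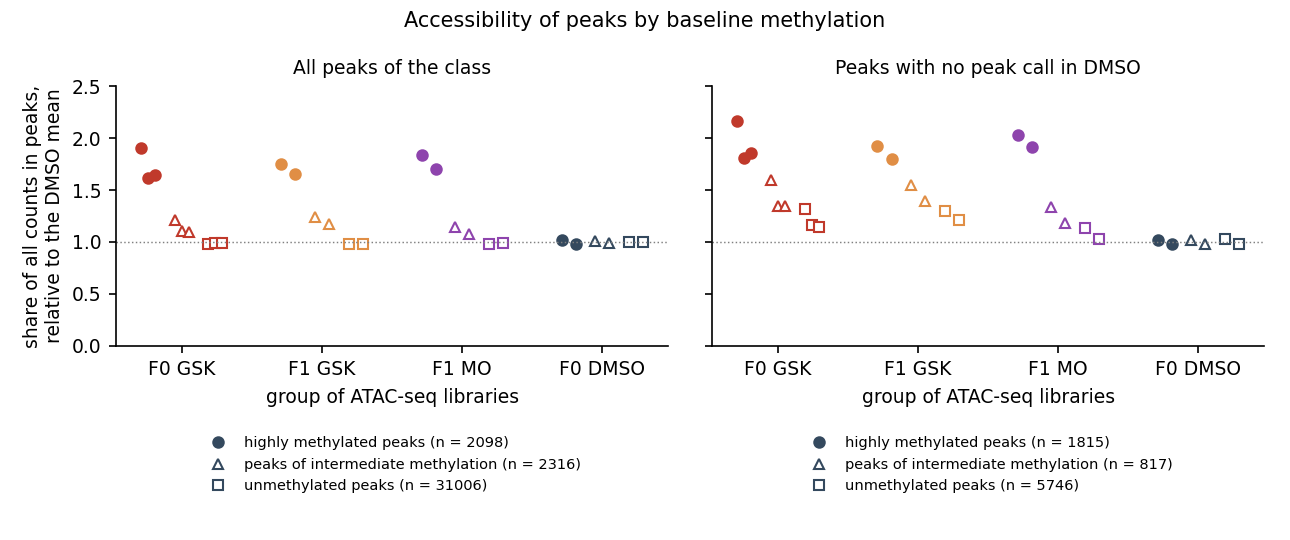
Share of all peak counts relative to the mean of both F0 DMSO libraries, 1 point per library, for highly methylated peaks (filled circles), peaks of intermediate methylation (triangles) and unmethylated peaks (squares), over the whole class (left) and over peaks with no call in DMSO (right). The highly methylated peaks lie between 1.62 and 1.91 in the 7 libraries other than DMSO on the left, above the other classes.

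The 5 largest rises were at small peaks with low counts in DMSO, 4 of them inside genes. LOC5519692 held the largest rise, at chr4:7203774-7204092 (assembly jaNemVect1.1, as all coordinates), with 17.1, 12.7 and 23.2 CPM (counts scaled to library size) in F0 GSK, against 1.22 and 2.76 CPM in F0 DMSO. This peak rose by 3.14 ± 0.33 on the log2 scale (SE; edgeR adjusted p = 1.7e-09). In F1 GSK it had 0.50 and 3.58 CPM, one below and the other above both DMSO libraries, and in F1 MO it had 7.03 and 13.0 CPM, both above them.

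A second one behaved otherwise in F1 GSK. In LOC5521100, the peak at chr2:11350048-11350359 had 14.2, 12.1 and 16.6 CPM in F0 GSK, against 0.75 and 2.73 CPM in F0 DMSO (log2 fold change 3.03 ± 0.37; edgeR adjusted p = 8.7e-08). Its 16.3 and 15.9 CPM in F1 GSK were at the height of F0 GSK, and F1 MO had 5.72 and 10.9 CPM. The mCG of the peak in sperm from GSK-treated individuals was 16.2% here and 72.9% at the LOC5519692 peak.

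The other 3 of the 5 largest rises were alike in size. In LOC5515578, chr2:2751384-2751869 had 18.2, 16.6 and 20.9 CPM in F0 GSK, against 2.03 and 2.67 CPM in F0 DMSO (log2 fold change 2.98 ± 0.29; edgeR adjusted p = 1.8e-10). LOC5503852 held chr9:918646-919064, with 23.9, 17.7 and 22.6 CPM in F0 GSK, against 3.69 and 1.89 CPM in F0 DMSO (2.94 ± 0.28; edgeR adjusted p = 1.7e-10). Outside any protein-coding gene, chr1:11633930-11634188 had 14.5, 19.7 and 18.6 CPM in F0 GSK, against 2.41 and 2.18 CPM in F0 DMSO (2.94 ± 0.29; edgeR adjusted p = 4.4e-10). At each of these 3, every F1 library lay above both DMSO libraries, with 5.64 to 12.1 CPM in F1 GSK and 7.26 to 41.3 CPM in F1 MO.

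**Figure D3:**
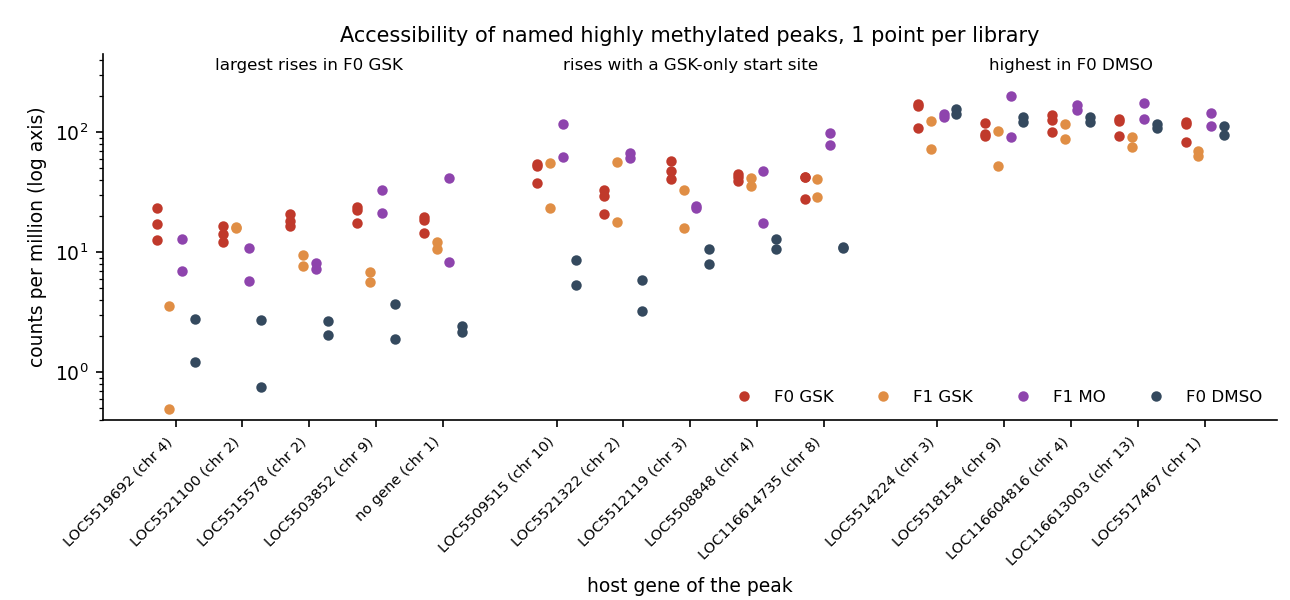
CPM (log axis) of 15 named highly methylated peaks, 1 point per library, labelled by host gene and chromosome and grouped as the 5 largest rises in F0 GSK, 5 rises with a GSK-only transcription start cluster and the 5 most open peaks in F0 DMSO. In the first 2 groups all F0 GSK points lie above all DMSO points, which the choice of the first group required. In the last, GSK and DMSO points lie between 83.9 and 173.7.

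LOC5502824 held 2 members. One, chr10:13503468-13504395, had 20.9, 19.1 and 31.0 CPM in F0 GSK, against 11.0 and 8.11 CPM in F0 DMSO, and rose by 1.31 ± 0.23 (edgeR adjusted p = 1.2e-04), a call lost without DMSO library 2 or GSK library 3. Its neighbour, chr10:13502366-13502899, had 12.4, 9.43 and 9.68 CPM in F0 GSK, against 7.38 and 7.703 CPM in F0 DMSO (0.48 ± 0.29; edgeR adjusted p = 0.57). LOC5502824 itself had 528.9, 480.8 and 600.6 CPM in F0 GSK RNA-seq, against 556.6, 545.2 and 567.2 CPM in F0 DMSO, which overlap.

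A few members were already open without treatment, and none of the most open was called. The 5 most open in DMSO had 83.9 to 173.7 CPM in F0 GSK, against 95.3 to 156.5 CPM in F0 DMSO, and log2 fold changes of -0.30 to 0.05 with edgeR adjusted p of 0.42 or above. They were long, 1308 to 2436 bp, and almost free of CpGs, with 0.21 to 0.77 CpGs per 100 bp, and their level rested on 5 CpGs in all but the LOC116613003 peak, which had 14. They lay in LOC5514224, LOC5518154, LOC116604816, LOC116613003 and LOC5517467. The peaks in LOC5514224 and LOC5517467 had 86.2% and 92.6% mCG in sperm and 78.6% and 80.8% in F1 gastrulae, and 27.4% and 21.5% in the F1 juvenile library.

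The members that rose were longer and denser in CpGs than the rest. In quartiles of CpG density, from the lowest to the highest, 43, 63, 132 and 120 members rose, with median log2 fold changes of 0.40, 0.52, 0.84 and 0.85. In quartiles of length the calls were 28, 38, 92 and 200, with medians of 0.51, 0.56, 0.65 and 0.89, and the median DMSO level of the longest quartile was 7.64 CPM against 2.89 CPM in the shortest, so counts per peak moved with length. Over the 2098 members, the log2 fold change had a Spearman's rho of 0.30 with CpG density and 0.18 with length, values given as description because peaks share libraries. Within genes 340 of 1934 members rose (17.6%), and outside them 18 of 164 (11.0%).

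Methylation at these sites was followed through a cross of GSK-treated and untreated animals, with 1 Nanopore library per stage. In sperm from GSK-treated individuals the median mCG of members was 32.7% (quartiles 17.4% and 62.9%, 2092 members), against 93.9% in untreated gastrulae; 626 members were under 20% and 308 at 80% or above. In F1 gastrulae of the GSKxUntreated cross the median was 62.4%, and in the F1 juvenile 59.5%. The F1 gastrula level was within 10 percentage points of the midpoint between sperm and untreated gastrulae at 1703 of 2083 members (81.8%), with a median difference of -1.82 points. Untreated gastrulae stood here for the untreated parent. At the 308 members at 80% or above in sperm, the midpoint (median 92.2%) was near both ends, so nearness says little there. At the 625 of these 2083 under 20% in sperm, the median difference was -1.55 points. From gastrulae to the juvenile, 209 members were lower by 20 points or more and 146 higher by as much. The juvenile library came from a single animal and the gastrula library from pooled embryos, so stage and individual cannot be told apart. Unmethylated peaks had medians of 0.13% in sperm and 0.05% in F1 gastrulae.

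**Figure D4:**
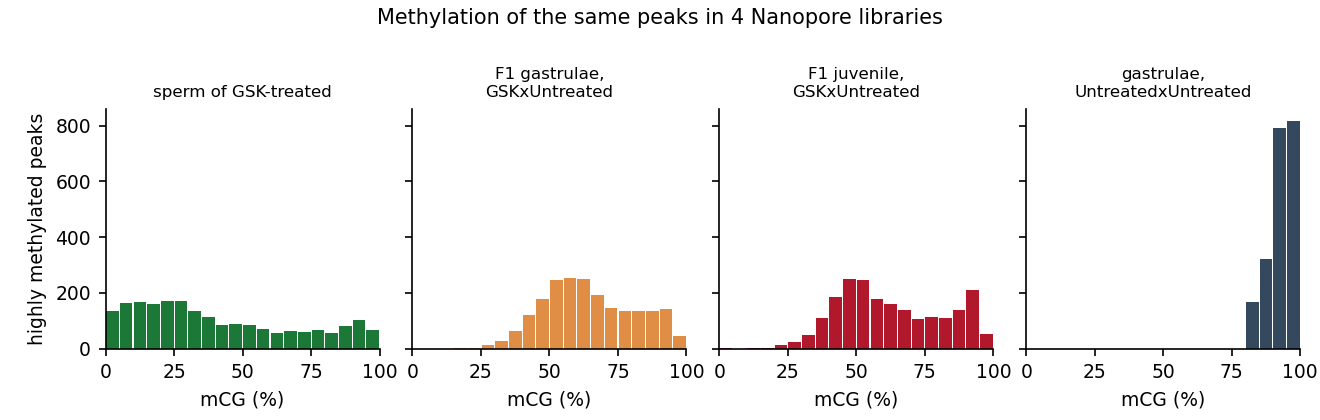
Number of highly methylated peaks in bins of 5 percentage points of mCG in 4 Nanopore libraries: sperm from GSK-treated individuals, F1 gastrulae and an F1 juvenile of the GSKxUntreated cross, and untreated gastrulae, which defined the set. Sperm levels spread from 0 to 100% with a median of 32.7%, and F1 gastrulae have a median of 62.4%.

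Accessibility was ordered by methylation in sperm, in F1 and, over all members, also in F0 GSK. Sperm methylation was no part of the choice of members. With rising sperm methylation (under 20%, 20 to 40%, 40 to 60%, 60 to 80%, 80% and above), the median log2 fold change of all members against DMSO was 0.74, 0.67, 0.61, 0.60 and 0.48 in F0 GSK, 0.87, 0.71, 0.63, 0.48 and 0.41 in F1 GSK, and 0.84, 0.68, 0.58, 0.30 and 0.29 in F1 MO. Relative to the DMSO share, the 626 members of the lowest bin took 2.10, 1.76 and 1.81 times in F0 GSK, 2.02 and 2.07 times in F1 GSK and 2.31 and 2.19 times in F1 MO. The 308 of the highest bin took 1.63, 1.44 and 1.42 times in F0 GSK, 1.34 and 1.21 times in F1 GSK and 1.18 and 1.09 times in F1 MO. Of the lowest bin 126 members (20.1%) rose in F0 GSK, and of the highest 36 (11.7%). At like CpG density these F0 GSK values were closer. Below the median density of members, the lowest and highest bins had median log2 fold changes of 0.47 and 0.46, with 8.51% and 8.91% risen. At or above that density they had 0.84 and 0.77, with 25.1% and 23.0% risen.

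The 357 risen members with a level in sperm were set in the same bins. Their F0 GSK values were fixed by the call that chose them, and nothing is read from their evenness across bins: the 126 of the lowest bin took 3.24, 2.89 and 3.08 times the DMSO share in F0 GSK, and the 36 of the highest 3.12, 3.13 and 3.10 times. The F1 values of risen members were set over the same DMSO libraries as the call, so their height over DMSO was partly fixed too. In F1 GSK the 126 took 2.86 and 3.24 times and the 36 took 1.32 and 1.43 times. In F1 MO the 126 took 4.01 and 4.54 times and the 36 took 1.01 and 1.47 times.

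The bins between formed a series. From the lowest to the highest bin, the median log2 fold change of risen members against DMSO was 1.49, 1.39, 1.25, 0.52 and 0.38 in F1 GSK and 2.08, 2.05, 2.02, 1.24 and 0.16 in F1 MO. In F0 GSK, whose contrast chose these members, it was 1.59, 1.67, 1.63, 1.53 and 1.58. All 4 F1 libraries lay above both DMSO libraries at 91 of 126 members in the lowest bin (72.2%), 61 of 104, 32 of 55, 8 of 36, and 3 of 36 in the highest (8.33%), where 6.01% of all peaks did so. Over all members of these bins, risen or not, it was 23.6%, 17.7%, 21.8%, 10.3% and 8.12%. Risen members were called against the same DMSO libraries, so their shares are not on a par with that of all peaks.

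The counts of the lowest bin were also set over those of the highest within each library. Among risen members this ratio was 3.65, 3.26 and 3.49 in F0 GSK, 7.67 and 7.97 in F1 GSK, 14.1 and 10.9 in F1 MO, against 3.57 and 3.46 in F0 DMSO, where the choice by the F0 call holds F0 GSK near F0 DMSO. Over all 2092 members with a sperm level the ratio was 1.95, 1.84 and 1.93 in F0 GSK, 2.28 and 2.58 in F1 GSK, 2.97 and 3.04 in F1 MO, against 1.57 and 1.46 in F0 DMSO, so that the 4 F1 libraries lay above the 3 of F0 GSK and those above both of DMSO. Below the median CpG density of members, the ratio was 0.6336, 0.5707 and 0.5807 in F0 GSK, against 0.5712 and 0.5218 in F0 DMSO, which overlap. In F1 it was 0.72 to 0.87 there. At or above that density the order held, with 8.38 to 8.61 in F0 GSK, 10.2 to 17.4 in F1, and 8.24 and 7.43 in F0 DMSO. These are descriptions over peaks that share libraries, with 1 sperm library, and no test was run. The F1 MO lines were bred from morpholino-injected animals, so this sperm of GSK-treated animals was not from their parents. Whether it came from parents of the F1 GSK lines is not given in the sources used here.

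CpG density moved with sperm methylation, from a median of 3.61 per 100 bp in the lowest bin of risen members to 1.67 in the highest. Below the median density of members, the 16 risen members under 20% in sperm took 2.37 and 3.13 times the DMSO share in F1 GSK and 3.02 and 3.88 times in F1 MO. The 22 at 80% or above took 1.27 and 1.52 times in F1 GSK and 0.67 and 1.57 times in F1 MO. At or above that density, the 110 members of the lowest bin took 2.97 and 3.27 times in F1 GSK and 4.22 and 4.68 times in F1 MO. The 14 of the highest bin took 1.42 and 1.23 times in F1 GSK and 1.75 and 1.25 times in F1 MO.

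**Figure D5:**
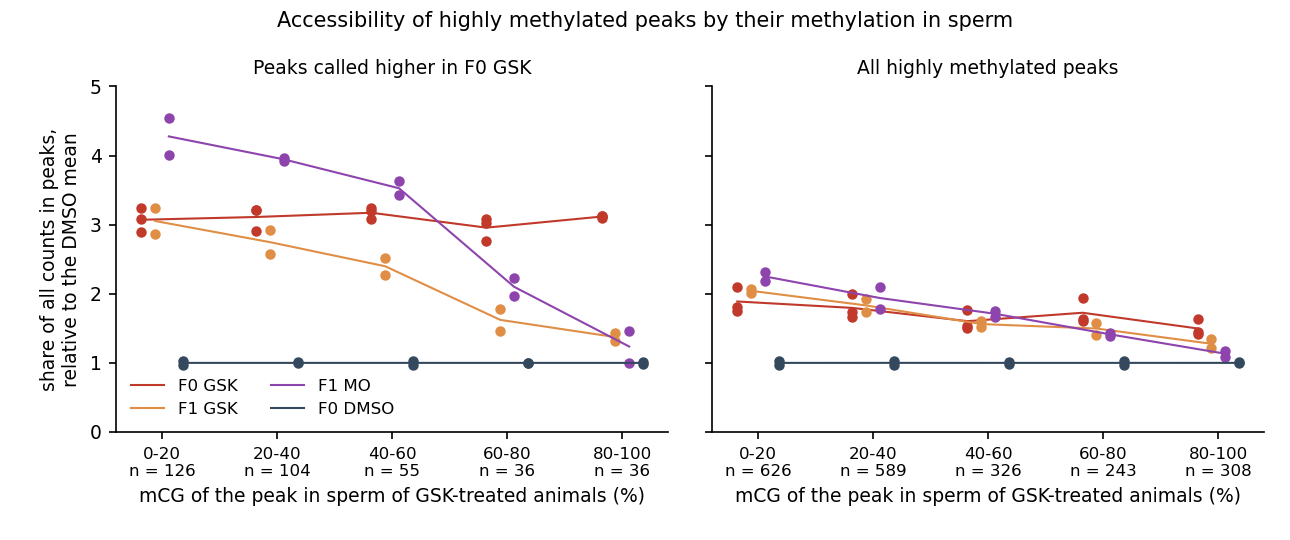
Share of all peak counts relative to the F0 DMSO mean, by the mCG of the peak in sperm from GSK-treated individuals (%), for members called higher in F0 GSK (left) and all members (right); points are libraries and lines group means. On the left the level F0 GSK line is set by the choice of members, and F1 GSK and F1 MO lie between 1.01 and 1.47 in the bin at 80% or above. On the right F0 GSK has 2.10, 1.76 and 1.81 in the lowest bin and 1.63, 1.44 and 1.42 in the highest.

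Peak by peak, no member was called in F1. In edgeR's quasi-likelihood test 0 members, and 0 of all peaks, passed a false discovery rate of 0.01 in F1 GSK or F1 MO against F0 DMSO, in F1 MO against F1 GSK, or in either F1 group against F0 GSK. At an unadjusted p under 0.05, 362 members were higher and 38 lower in F1 GSK against F0 DMSO (4.92% and 4.4% of all peaks), and 276 higher and 444 lower in F1 MO (5.6% and 13% of all peaks). Both F1 GSK libraries lay above both DMSO libraries at 917 members (43.7%, against 21.7% of all peaks) and below at 195 (9.29%, against 22.7%). Both F1 MO libraries lay above at 640 (30.5%, against 23.3%) and below at 540 (25.7%, against 24.4%). DESeq2 called 36 members higher and 0 lower in F1 GSK, where it called 68 and 22 of all peaks, and 307 higher and 404 lower in F1 MO, where it called 2233 and 4389 of all peaks. Median log2 fold changes of members were 0.67 in F1 GSK and 0.58 in F1 MO against F0 DMSO, beside 0.03 and 0.11 over all peaks. For F1 MO, whose 2 lines differed, the median depended on the library, with 0.03 without line 1 and 0.48 without line 2, and it was -0.63 with the replicate number as a block.

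Between the F1 groups and F0 GSK, the median log2 fold change of members depended on the library and the fit wherever F1 MO took part. For F1 GSK against F0 GSK it was -0.02, with -0.12 to 0.09 without 1 library and -0.20 with the replicate block. For F1 MO against F0 GSK it was also -0.02, but -0.70 without line 1, -0.25 without line 2, -0.25 under total counts and -1.23 with the replicate block. For F1 MO against F1 GSK it was 0.05, but -0.57 and -0.28 without line 1 or 2 of F1 MO, -0.13 under total counts and -0.61 with the replicate block. At an unadjusted p under 0.05, 59 members were higher and 252 lower in F1 MO against F1 GSK (2.88% and 7.37% of peaks), 124 and 192 in F1 GSK against F0 GSK (6.79% and 6.49%), and 186 and 515 in F1 MO against F0 GSK (10.1% and 14.9%). The libraries of the groups lay wholly above and below each other at 360 and 503 members in F1 MO against F1 GSK (19.5% and 19.6% of all peaks), 322 and 430 in F1 GSK against F0 GSK (15.8% and 16.7%), and 397 and 623 in F1 MO against F0 GSK (20.6% and 21.8%). The 2 libraries of a group differed by over 2-fold at 41.8% of members in F1 GSK and 51.0% in F1 MO, against 3.10% in F0 DMSO and 3.38 to 7.77% in pairs of F0 GSK. Peak counts summed to 24059685 to 30494526 in F0 GSK, 11366484 and 19253881 in F1 GSK, 14046962 and 12525960 in F1 MO, against 31015826 and 33980509 in F0 DMSO. Of the members, 57 and 66 had no count in the F1 MO libraries, and 2 and 7 had none in F1 GSK. With 200 peaks changed by 2 on the log2 scale in simulated data, 90% were recovered for F0 GSK against F0 DMSO. Recovery was 20% when F1 GSK was set against F0 DMSO, and 42.5% against F0 GSK. With F1 MO it was 0% against F0 DMSO, 0.5% against F1 GSK and 0% against F0 GSK. The absence of calls therefore does not show that accessibility was unchanged. The separate parts of spread and depth in it were not tested.

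Transcription start sites seen only in GSK lay in few members. Counted in either GSK library, they were no more frequent in members than in peaks at large. Counted in both, they were more frequent, at 11 members. CAGE-seq, which sequences the capped 5′ ends of RNA, was available for 2 libraries of F0 GSK gastrulae and 2 of untreated gastrulae. Clusters of start sites overlapped 38 and 35 members (1.81% and 1.67%) in F0 GSK, against 28 and 25 (1.33% and 1.19%) in untreated gastrulae, while about 22.7% of all peaks held one. A GSK cluster that no untreated cluster on its strand overlapped lay in 16 members (0.763%, against 0.863% of all peaks), and the reverse in 5 (0.238%, against 0.769%). In both GSK libraries such a cluster lay in 11 members (0.524%, against 0.300% of all peaks).

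By accessibility, 13 of the 16 were among the 358 members that rose (3.63%), while 4 of the 164 risen peaks outside the set held such a cluster (2.44%). The 11 seen in both GSK libraries were all risen members, lying 1275 to 12560 bp from the nearest gene end, with 88.7% to 97.6% baseline mCG. Among the 1740 members not called there were 3, none of them in both GSK libraries. Of the 11, 10 held no untreated cluster anywhere in the peak. The cluster signal at the 11 was 13.0 to 76.6 in the normalized units of the deposited clusters. CAGE clusters were listed after a filter on low signal, so a missing cluster is not a signal of 0.

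At the 5 with the largest rises of these 10, the peaks and the start sites can be set side by side. In LOC5509515, chr10:3600630-3601261 had 37.5, 54.9 and 51.9 CPM in F0 GSK, against 8.67 and 5.35 CPM in F0 DMSO (log2 fold change 2.78 ± 0.20; edgeR adjusted p = 6.6e-14). Its cluster, with signals of 43.2 and 27.7, began 111 bp from the peak's centre at position 3601057 on the plus strand in both GSK libraries. The gene's RNA was at 82.2, 73.6 and 84.9 CPM in F0 GSK, against 54.8, 56.0 and 47.2 CPM in F0 DMSO (0.61 ± 0.12; edgeR adjusted p = 0.031), with no overlap but short of the threshold of 0.01.

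LOC5521322 held chr2:9823860-9824399, with 20.8, 29.6 and 33.2 CPM in F0 GSK, against 3.25 and 5.93 CPM in F0 DMSO (2.60 ± 0.25; edgeR adjusted p = 1.8e-10). Its cluster lay on the minus strand with its main start at 9824082, with signals of 55.5 and 46.9. Every F1 library lay above both DMSO libraries, with 17.9 and 56.2 CPM in F1 GSK and 61.5 and 67.6 CPM in F1 MO, and its sperm level was 13.6% mCG.

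The 3 others were wider. In LOC5512119, chr3:9061952-9063194 had 41.1, 57.7 and 47.4 CPM in F0 GSK, against 8.01 and 10.7 CPM in F0 DMSO (2.38 ± 0.18; edgeR adjusted p = 4.6e-13). LOC5508848 held chr4:12406237-12407273, with 39.6, 42.1 and 44.8 CPM in F0 GSK, against 10.6 and 13.0 CPM in F0 DMSO (1.83 ± 0.18; edgeR adjusted p = 1.5e-10). In LOC116614735, chr8:3120960-3122595 had 42.1, 27.8 and 42.5 CPM in F0 GSK, against 10.8 and 11.1 CPM in F0 DMSO (1.77 ± 0.19; edgeR adjusted p = 4.3e-09). At all 3 peaks every F1 library lay above both DMSO libraries, with 15.9 to 98.2 CPM.

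RNA of the 11 host genes was measured in the same embryos. At 9 of the 11 host genes every F0 GSK library lay above every F0 DMSO library, as at 11.5% of all genes tested, but none of the 9 passed the test. The median log2 fold change over the 11 was 0.58. The single one that passed went down, LOC5505359, at -1.42 ± 0.13 (edgeR adjusted p = 0.0029). The GSK CAGE-seq libraries were made from RNA also used for 2 F0 GSK RNA-seq libraries, so the measures share samples. Without strands in the gene table used, sense and antisense start sites cannot be told apart.

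Host genes of members in general were more often lower than higher. Of the 1494 host genes tested in RNA-seq (3 libraries each of F0 GSK and F0 DMSO), 57 (3.82%) fell and 2 (0.134%) rose, against 0.991% and 0.24% of all genes. The median log2 fold change was -0.12, against -0.00 over all genes, and 77.2% of host genes were within 0.5 of 0, as were 76.6% of all genes. Host genes were well expressed, with a median of 53.9 CPM in F0 DMSO against 14.2 CPM over all genes. Of the 319 host genes of a risen member, 17 fell and 2 rose. The calls were fragile: between 2 and 112 host genes fell when a library was left out, and 1 with the replicate number as a block.

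The 5 steepest falls were at genes with no risen member. LOC5509388 had 21.1, 25.5 and 19.6 CPM in F0 GSK, against 206.9, 244.6 and 254.3 CPM in F0 DMSO (log2 fold change -3.41 ± 0.16; edgeR adjusted p = 1.2e-04), and its member, chr3:18053680-18054007, had an accessibility change of 1.51 ± 0.39 that did not pass (edgeR adjusted p = 0.018). LOC5505688 had 31.7, 33.9 and 33.3 CPM in F0 GSK, against 149.1, 151.9 and 163.9 CPM in F0 DMSO (-2.23 ± 0.11; edgeR adjusted p = 1.4e-04). Both kept their call on leaving out any 1 library, but LOC5505688 lost it with the replicate number as a block. In F1, LOC5509388 had 43.3 and 96.7 CPM in F1 GSK and 7.13 and 5.66 CPM in F1 MO, and LOC5505688 had 125.5 and 97.3 CPM in F1 GSK and 103.9 and 78.9 CPM in F1 MO.

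LOC116617041, LOC5507850 and LOC5503945 had log2 fold changes of -2.63, -2.55 and -2.22 (edgeR adjusted p of 0.0029, 0.0032 and 0.0042), and the log2 fold changes in accessibility of their members were 0.65, 0.31 and 1.04, none called. The 2 host genes that rose each held a risen member. LOC5525232 had 53.2, 37.8 and 50.6 CPM in F0 GSK, against 14.9, 13.9 and 19.95 CPM in F0 DMSO (1.55 ± 0.20; edgeR adjusted p = 0.0057), with its member, chr2:19448393-19449056, up by 1.69 ± 0.25. LOC5505390 had 67.9, 61.6 and 51.2 CPM in F0 GSK, against 25.0, 28.9 and 26.1 CPM in F0 DMSO (1.18 ± 0.15; edgeR adjusted p = 0.0054), with its member, chr6:1978072-1978618, up by 1.34 ± 0.18. In F1, LOC5525232 had 14.4 and 25.8 CPM in F1 GSK and 21.3 and 29.4 CPM in F1 MO, 3 of them above every DMSO library, and LOC5505390 had 24.2 to 26.3 CPM. Of these 5 calls, all were lost on leaving out at least 1 library.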

How the data were processed

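The deposited ATAC-seq table held raw insert-site counts per merged peak for 9 libraries, made by the authors with Chromap, MACS3 peaks per library (q under 0.05), bedtools and featureCounts on the RefSeq assembly jaNemVect1.1. The deposited MACS3 −log10 q-values set the stricter peaks; the deposited fold enrichment was not used. Nanopore tables held the authors' counts of valid and modified calls per CpG (Dorado and Modkit). CAGE-seq clusters carried a signal normalized by the authors in CAGEr, and RNA-seq tables raw counts per gene, from Kallisto or from HISAT2 with TElocal (which is not given in the sources used here). No per-sample column was left out (0).

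Counts were tested with edgeR 4.0.16 (TMM, quasi-likelihood, only the 2 groups compared, Benjamini-Hochberg over all peaks or genes); DESeq2 1.42.0 was an alternative. CPM uses TMM over all libraries. Scripts were tested on simulated data. The members, lists and tests were chosen with earlier results of these data known. Peaks named are the 5 largest rises with separated groups and at least 1 CPM, the 5 highest in DMSO, 5 with start sites of both GSK libraries and no untreated cluster, those in LOC5502824, the 3 on each side of the threshold, and host genes called. No member fell and none was called in F1, so none is named there. Chromosome accessions were paired with numbers by CAGE clusters near gene ends. Gene descriptions, strands and sequences were not used here, so the planned gene lists, cell type markers and motifs were not run. Replicates of F0 came from different broodstocks split between GSK and DMSO, and the labels do not say that a number marks a broodstock. Deviations of log2 CPM from the group mean were compared between same-numbered libraries of F0 GSK and F0 DMSO. These deviations correlated at 0.043 and 0.0095 in ATAC-seq and at -0.52 to -0.11 in RNA-seq. The main fits therefore did not pair libraries, and the replicate block was an alternative.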

Additional observations from a re-analysis of the deposited data

How the results depend on the processing

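Of the 358 members called higher in F0 GSK against F0 DMSO, the count stayed within 1.5 times under DESeq2, both other scalings, no filter, the replicate block (342) and 5 other definitions of the set (296 to 361). It was 134 of 242 members with a peak of −log10 q of at least 5 in 2 F0 libraries, 0 in one fit over all groups, and 174 to 382 without a library; called lower were 0 to 1.

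The F1 counts of 0 changed under DESeq2, by library left out and in a few fits. DESeq2 called 36 higher in F1 GSK and 307 higher and 404 lower in F1 MO against F0 DMSO, 34 higher and 94 lower in F1 MO against F1 GSK, 9 higher and 58 lower in F1 GSK against F0 GSK, and 171 higher and 502 lower in F1 MO against F0 GSK. The replicate block gave 2 higher in F1 GSK against F0 DMSO, and one fit over all groups 2 higher in F1 MO. Without a library, where a lone F1 library is assumed to vary like the other group, counts ran from 0 to 630 higher and 0 to 378 lower in F1 GSK against F0 DMSO, 0 to 806 and 0 to 857 in F1 MO against F0 DMSO, 0 to 138 and 0 to 468 in F1 GSK against F0 GSK, and 0 to 425 and 0 to 957 in F1 MO against F0 GSK; they stayed at 0 in F1 MO against F1 GSK. The median log2 fold change of members in F1 MO against F0 DMSO was 0.58, with 0.38 under total counts and -0.63 with the replicate block; scaling moved the median of all peaks there, at 0.11, to 0.19 (RLE) and -0.09 (total counts).

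Host genes in RNA-seq were lower in 57 cases and higher in 2 as reported, 178 and 20 with DESeq2, 89 and 6 in one fit over all groups, 1 and 0 with the replicate block, and 2 to 112 and 0 to 9 without a library. Untreated-only CAGE clusters were 3 in both libraries and 3 at 90% mCG. The cause of these changes was not tested. Intervals and p-values cover the spread between these libraries only.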

Other observations

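Members with a peak in both DMSO libraries were a small class of 72, long (median 920 bp) and poor in CpGs (median 1.22 per 100 bp), with a median log2 fold change of 0.10 in F0 GSK against F0 DMSO. In the F1 juvenile, 12 of the 69 with levels in all libraries (17.4%) were lower by 20 points or more than in F1 gastrulae, beside 171 of 1805 members without a DMSO peak (9.47%). The difference was not tested, and the juvenile library came from a single animal.

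The risen share of members varied among chromosomes, from 6 of 84 on chromosome 15 (7.14%) to 53 of 197 on chromosome 2 (26.9%). By distance of the peak centre from the nearest gene end, 64, 133, 102 and 59 members rose in quartiles from near to far, with median log2 fold changes of 0.50, 0.82, 0.72 and 0.54. The 9 genes with 5 or more members had 3 risen members among them, and 23 genes held 2 or more risen members.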
